A study of Homo sapiens with 10 samples.

Results

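The genes described are the collagen chains, found by the names COL, number, A and number, with 13 genes whose products modify collagen (the prolyl 4-hydroxylase subunits P4HA1, P4HA2 and P4HA3, the lysyl hydroxylases PLOD1 to PLOD3, the lysyl oxidases LOX and LOXL1 to LOXL4, the proteinase BMP1 and its enhancer PCOLCE). Of 12125 genes in the table, 43 met this rule, 32 chains and 11 modifying genes. The chains were 10 of fibrillar collagens, 4 of type IV, the collagen of basement membranes, and 18 of other types. Of the 44 chains listed for the comparison of types, 12 were not analysed here, nor were P4HA3 and LOXL4.

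RNA was sequenced from bulk cultures of H1, a widely used human embryonic stem cell line, at 10 times while the cells were driven towards hepatocyte-like cells, with 1 library per time and no replicate. By their labels the cells were presumed to be stem cells at day 0, early definitive endoderm at day 1, definitive endoderm at days 2 and 3, early hepatoblasts at day 5, hepatoblasts at days 7, 9 and 11, and hepatocyte-like cells at days 13 and 21. Day 0 cells were undifferentiated and had received no factor, and the libraries of days 1, 2 and 3 were labelled Activin A (100 ng per ml). Days 5 and 7 were labelled FGF4 (30 ng per ml) with BMP2 (20 ng per ml), days 9 and 11 HGF with KGF (20 ng per ml of each), and days 13 and 21 OSM, Oncostatin M (20 ng per ml). The protocol gives 3 days of Activin A, 4 days of FGF4 and BMP2, 6 days of HGF and KGF and 8 days of OSM, so that day 13 is the last day of HGF and KGF by the protocol and an OSM library by its label. The cells were grown on Matrigel, a basement membrane extract, at the start, and no library of cells kept without the factors was part of the course.

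Collagens are matrix proteins whose chains wind in sets into a triple helix. Fibrillar collagens such as types I, III and V form the fibres of connective tissue, and type IV forms the sheet-like network of basement membranes. FACIT collagens bind to the surface of fibrils, and type VI forms beaded filaments. In the cell, prolines and lysines of the chains are hydroxylated. The propeptides of fibrillar procollagens are removed mostly outside the cell, where lysyl oxidases also start the crosslinks between molecules. In the adult liver, fibrillar collagen is made chiefly by stellate cells and fibroblasts rather than by hepatocytes.

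Each value is a GC-normalized score and not a read count, and it is not divided by gene length, so a gene is compared between days and not with other genes. Such values do not give the depth of a library, and their sum was between 2330948 and 2362740 in each library. Values of 2164 or more lay at 10 levels shared by all libraries, with 18734 the maximum. The step up to that maximum is 1.53 on the log2 scale, and 13 chains and 2 modifying genes reached these levels on at least 1 day. Repeated levels also lie below 2164, as 2021 for COL18A1 on days 9, 11 and 13, so equal values there need not mean equal RNA. A change is the difference of log2(value + 1) between 2 libraries, which understates the change of low genes. A gene was called higher or lower at a difference of at least 2 where the larger value was at least 50. A gene below 50 in 1 of the libraries was tested only through the other, and could be called only in that direction. No p-value was possible with 1 library per day. Days 9 and 11, which share a medium but are different times and not replicates, were used as a rough guide to how far libraries differ. They gave differences from -0.88 to 1.42 for the 18 chains and from -0.64 to 0.90 for the 10 modifying genes with a larger value of at least 50. Between these days 0.107% of all genes were called higher and 0.107% lower, and no chain or modifying gene was. Days 5 and 7 also share a medium, and between them COL3A1 changed by 4.56 and COL4A1 by 0.0. Error of a library therefore cannot be told apart from change with time. The markers of each stage followed the labels in part. The summed value of 4 stem cell genes was 8663 at day 0 and 42 at day 21, but LIN28A among them was highest at day 5 (4862). That of 4 definitive endoderm genes was highest at day 3 (20282), of which CER1 made 18734, while FOXA2 was highest at day 7 (343), and that of 6 hepatoblast and hepatocyte genes was 39 at day 0 and 64966 at day 21.

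From day 0 to day 21 most of the collagen chains tested were called higher. Of the 24 chains with a larger value of at least 50, 19 were called higher and 0 lower, where 11.9% of all genes were called higher and 11.5% lower. The median log2 change was 3.24 for these chains and -0.11 for all genes tested. All 8 fibrillar chains tested, all 4 type IV chains and 7 of 12 other chains were called higher, with median changes of 4.37, 2.97 and 2.83. With low values kept, the median was 3.53 over the 10 fibrillar and 1.43 over the 18 other chains, and with a larger value of at least 200 that of the other chains was 4.08. Of the 11 modifying genes, 8 were called higher and 0 lower, with a median of 2.92. Among the genes called higher, COL3A1, COL12A1, COL15A1, COL16A1, LOX, LOXL1 and BMP1 were below 50 at day 0. They were tested only through their day 21 values and could only be called higher. COL9A3 and COL23A1 were below 50 at day 21, could only be called lower, and were not called. In bulk RNA, more cells of a type and more RNA per cell cannot be told apart.

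On days 0, 3, 7, 13 and 21 the chains together made up 0.231%, 1.35%, 1.12%, 2.41% and 3.61% of the summed values of the library. At day 0, 0 of the 96 genes at the shared top levels was a collagen chain. At day 21, 11 of 97 such genes were, namely COL1A1, COL1A2, COL3A1, COL4A1, COL4A2, COL5A1, COL5A2, COL6A1, COL6A2, COL6A3 and COL11A1. The summed value of the fibrillar chains was 1517 at day 0 and 21141 at day 3, of which COL5A2 made 18734, the maximum of the scale. It was 4871 at day 5 and 56696 at day 21, of which COL1A2 and COL5A1 each made 18734. That of the type IV chains was 965, 2807, 17530 and 9779 on the same days. The sums are not adjusted for length and are compared between days, not between types.

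**Figure D1:**
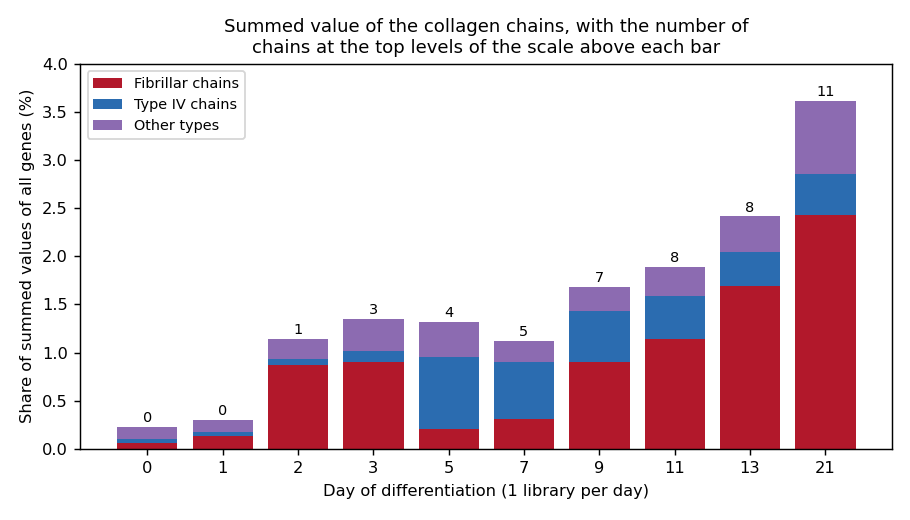
Share of the summed values of all genes (%, vertical axis) held by the fibrillar, type IV and other collagen chains in each library, by day, with the number of chains at the top levels of the scale above each bar. The share was 0.231% at day 0 and 3.61% at day 21, and the part of the type IV chains was largest at day 5.

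The day of the highest value differed between the types. Of the 28 chains whose highest value was at least 50, 12 (42.9%) had it at day 21 and 7 (25%) at day 5, where 19.4% of all such genes were highest at day 21 and 8.77% at day 5. The 4 type IV chains were highest at day 5 or day 7, whereas 4 of 9 fibrillar chains and 8 of 15 other chains were highest at day 21. All 11 modifying genes were highest at day 21. Where a gene held its highest value on several days, the earliest was taken.

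**Figure D2:**
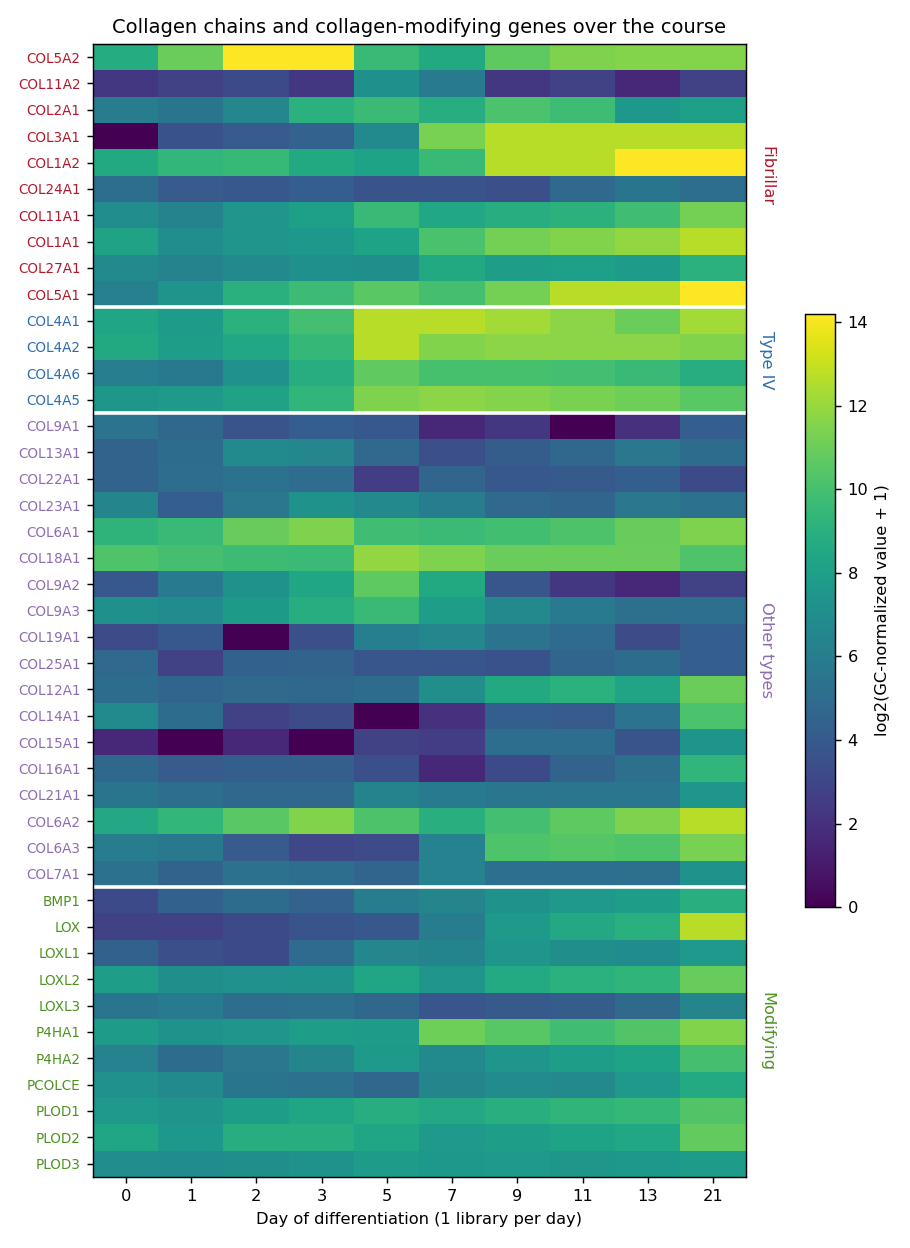
Level of each of the 43 genes, as log2(value + 1) in colour, by day (horizontal axis, 1 library per day), with genes ordered by type and then by the day of their highest value. COL5A2 stands at the maximum of the scale at days 2 and 3, the type IV chains are brightest at days 5 and 7, and the modifying genes are brightest at day 21.

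Type I collagen, the main collagen of fibres, is built from COL1A1 and COL1A2. COL1A1 (ENSG00000108821, chromosome 17) had values of 294, 122, 169 and 192 on days 0 to 3, 306 and 1107 on days 5 and 7, 2426, 2968 and 3861 on days 9, 11 and 13, and 6494 at day 21. COL1A2 (ENSG00000164692, chromosome 7) had 390, 686, 734 and 390 on days 0 to 3, 305 and 745 on days 5 and 7, 6496 on days 9 and 11, and 18734, the maximum of the scale, on days 13 and 21. Both chains were thus low until day 5 and high from day 9 on, without overlap. The call for COL1A1 fell in the interval from day 3 to day 7 (log2 change of 2.52) and that for COL1A2 in the interval from day 7 to day 13 (4.65, with 8.72 times the value already between days 7 and 9). COL1A2 could not show a further rise after day 13.

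COL3A1 (ENSG00000168542, chromosome 2), the single chain of type III collagen, was listed at 0 at day 0, had 11, 16 and 21 on days 1 to 3, 111 at day 5 and 2643 at day 7, and stood at 6502 from day 9 to day 21. Between days 5 and 7 its value rose 23.8-fold, and the equal values from day 9 on are a level of the shared scale. Because it was listed at 0, no fold against day 0 is given.

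Type V collagen, which is built into type I fibrils and is known to limit their width, had chains with unlike courses. COL5A2 (ENSG00000204262, chromosome 2) had 435 at day 0, 2026 at day 1 and 18734 at days 2 and 3, then 782 and 399 at days 5 and 7, 1644, 2802 and 2972 on days 9, 11 and 13, and 2972 at day 21. It was the only chain at the maximum before day 13. Its log2 change was 5.43 from day 0 to day 3, -5.55 from day 3 to day 7 and 2.89 from day 7 to day 13, so it passed the call in opposite directions. COL5A1 (ENSG00000130635, chromosome 9) had 72, 162, 522 and 838 on days 0 to 3, 1490 and 1021 on days 5 and 7, 2426 at day 9, 6493 on days 11 and 13, and 18734 at day 21. It was called higher from day 0 to day 3 (3.52) and from day 7 to day 13 (2.67), and showed no fall like that of COL5A2 after day 3.

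Genes listed as markers of fibroblasts and stroma moved over the same days as the later rise of these chains. Of the 10 genes of the list, 9 were measured, and their summed value was between 2037 and 3043 on days 0 to 7 and between 5548 and 12280 on days 9 to 21. From day 13 to day 21 their sum went from 12280 to 11782, while that of the fibrillar chains went from 39931 to 56696. At day 3, when COL5A2 was at its maximum, the list did not move as one. LUM and DCN were listed at 0, ACTA2, PDGFRA, POSTN and PDGFRB were between 2 and 41, and THY1, TAGLN and FBLN1 were at 147, 1324 and 1044. From day 0 to day 3 TAGLN was called higher (3.31) and THY1 lower (-3.87). From day 0 to day 21, 6 of the 9 were called higher (ACTA2, DCN, LUM, PDGFRA, PDGFRB and POSTN) and 1 lower (THY1), where 11.9% of all genes were called higher and 11.5% lower. These 6 were below 50 at day 0 and could only be called higher, and THY1 was below 50 at day 21 and could only be called lower. The part of such cells in the collagen values was not tested.

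Types II and XI are the fibrillar collagens of cartilage, and type IX, a FACIT collagen, coats their fibrils. COL2A1 (ENSG00000139219, chromosome 12) had 62, 44, 96 and 544 on days 0 to 3, 822 and 459 on days 5 and 7, 1156 and 901 on days 9 and 11, 186 at day 13 and 255 at day 21. COL9A2 (ENSG00000049089, chromosome 1) had 14, 59, 154 and 322 on days 0 to 3, 1638 at day 5, 398 at day 7, and 13, 4, 2 and 6 on days 9, 11, 13 and 21. COL9A3 (ENSG00000092758, chromosome 20) had 140, 116, 211 and 466 on days 0 to 3, 756 at day 5, 241 at day 7, 100, 54 and 37 on days 9, 11 and 13, and 36 at day 21. These chains were highest in the middle of the course, and COL9A2 was the steepest, with 117 times its day 0 value at day 5 and 126 times less at day 9 than at day 5.

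COL11A2 (chromosome 6) also stood out at day 5, with 138, and at day 7, with 59, and was between 2 and 8 on all other days. COL11A1 (ENSG00000060718, chromosome 1), its partner in type XI collagen, had 124, 82, 178 and 261 on days 0 to 3, 770 and 370 on days 5 and 7, 451, 552 and 903 on days 9, 11 and 13, and 2438 at day 21. It was called higher from day 0 to day 21 (4.29) and in none of the single steps. COL9A1 never exceeded 42. Thus 3 chains (COL9A2, COL9A3 and COL11A2) had their highest value at day 5 and were at or below 36 at day 21, while COL11A1 was highest at the end. Of 6 cartilage genes listed for comparison, 3 were measured, and their summed value was between 343 and 867 on days 2 to 13, 72 at day 0 and 97 at day 21. MATN3, a matrix protein that binds type IX collagen, had values of 34, 650 and 342 on days 0, 3 and 5 and was called higher from day 0 to day 3 (4.22) and lower from day 3 to day 7 (-3.39). HAPLN1, the link protein, was highest at day 9 (726), and ACAN, the aggregating proteoglycan, at day 11 (102). The part of such cells in these collagen values was not tested. These chains were set side by side after their values were seen.

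The remaining fibrillar chains moved less. COL27A1 (chromosome 9) had 102, 80, 102 and 139 on days 0 to 3, 135 and 393 on days 5 and 7, 242, 253 and 234 on days 9, 11 and 13, and 527 at day 21, and was called higher only from day 0 to day 21 (2.36). COL24A1 lay between 10 and 44 throughout and was called in no comparison.

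**Figure D3:**
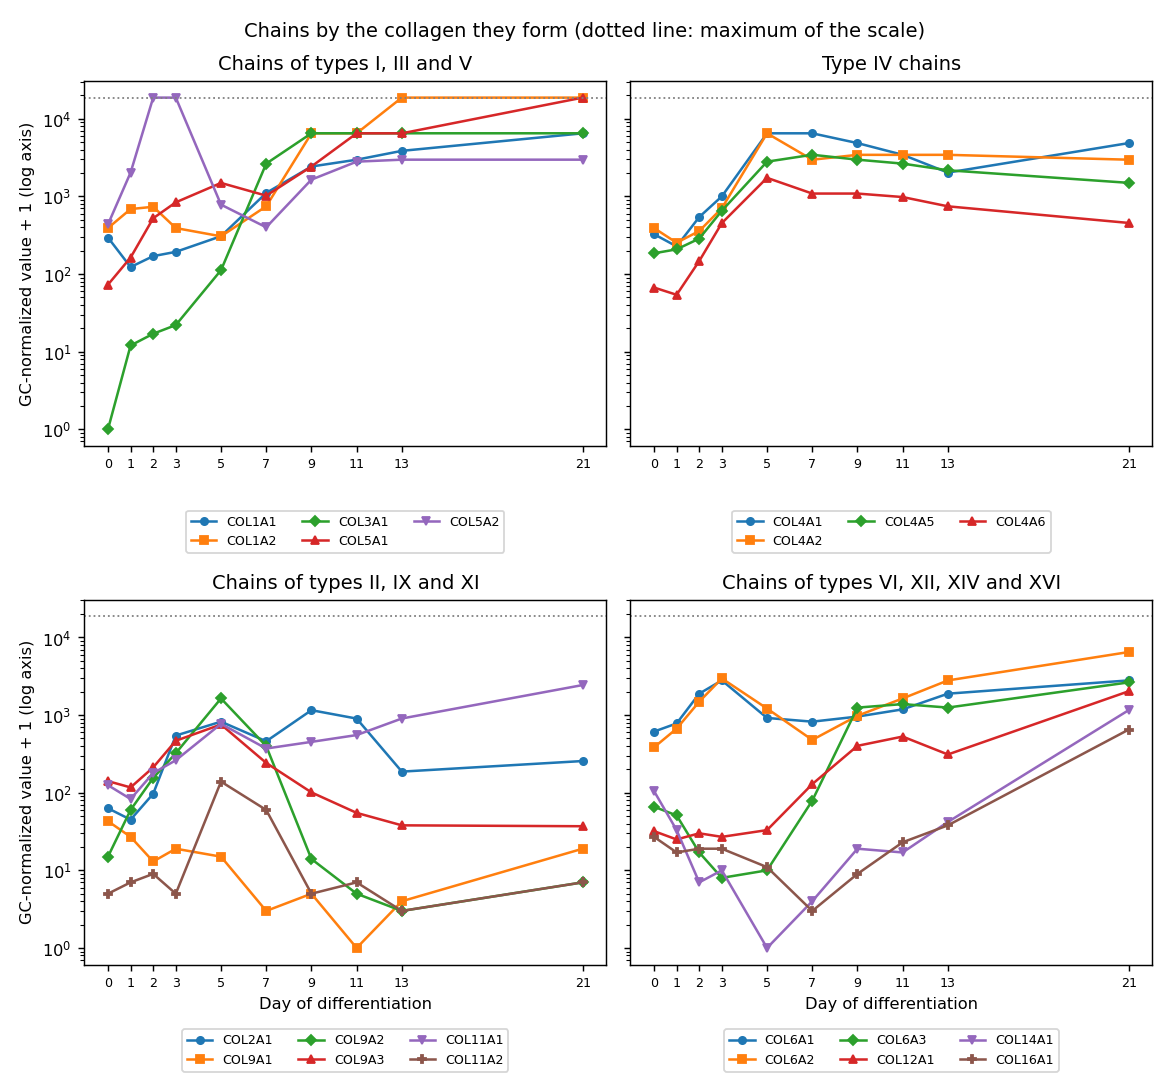
Value + 1 on a log axis against the day of differentiation for 21 chains, grouped by the collagen they form. The dotted line marks 18734, the maximum of the scale. Type I and III chains are at 2426 or more from day 9 on, type IV chains peak at days 5 and 7, COL9A2 and COL11A2 are high only around day 5, and COL12A1, COL14A1 and COL16A1 are highest at day 21.

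Type IV chains are encoded in pairs that face away from each other across a short shared promoter, so the sequences between the starts are shown for the pairs measured here. COL4A1 and COL4A2 start 126 bases apart on chromosome 13 in RefSeq (GRCh38.p14), and the whole gap, chr13:110307158-110307283 on the plus strand, is printed. COL4A6 and COL4A5 start 379 bases apart on chromosome X, and the 250 bases next to COL4A5, chrX:108439588-108439837 on the plus strand, are printed. Capitals mark CCAAT (or its reverse complement ATTGG) and GGGCGG.
COL4A1/COL4A2: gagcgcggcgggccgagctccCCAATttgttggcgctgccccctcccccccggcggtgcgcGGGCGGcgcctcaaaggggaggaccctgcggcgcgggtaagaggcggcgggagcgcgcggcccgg
COL4A6/COL4A5: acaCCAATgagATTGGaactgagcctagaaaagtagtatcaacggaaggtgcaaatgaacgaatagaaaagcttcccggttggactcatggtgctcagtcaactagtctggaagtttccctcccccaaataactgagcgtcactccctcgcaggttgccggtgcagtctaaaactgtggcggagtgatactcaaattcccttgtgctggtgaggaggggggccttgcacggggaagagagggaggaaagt
The gap of COL4A1 and COL4A2 is 80.2% G and C and holds 1 CCAAT and 1 GGGCGG, and the printed bases of COL4A6 and COL4A5 are 51.2% G and C and hold 2 CCAAT and 0 GGGCGG. Neither holds the TATA box TATAAA, the AP-1 motif TGANTCA or the forkhead motif TGTTTAC on either strand. In 27305 promoters of 250 bases, 33% held CCAAT, 42.3% GGGCGG, 11.1% the TATA box, 6.6% the AP-1 motif and 2.98% the forkhead motif. A promoter was found for 32 of the 43 genes, of which 9 held CCAAT, the 4 type IV chains among them, 19 GGGCGG, 4 the TATA box, and 0 the AP-1 or the forkhead motif. The windows of each type IV pair overlap and share CCAAT sites, so these 4 are not independent matches. A match of letters does not show that a factor binds.

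COL4A1 and COL4A2, which form the most widespread type IV trimer, were highest at day 5. COL4A1 (ENSG00000187498) had 325, 226, 541 and 1000 on days 0 to 3, 6499 at days 5 and 7, 4861, 3434 and 2026 on days 9, 11 and 13, and 4862 at day 21. COL4A2 (ENSG00000134871) had 390, 252, 357 and 703 on days 0 to 3, 6496 at day 5, 2969 at day 7, 3430, 3429 and 3431 on days 9, 11 and 13, and 2969 at day 21. Between days 3 and 5 COL4A1 rose 6.50-fold and COL4A2 9.24-fold, and neither went back to its day 0 value. The log2 difference of COL4A2 from COL4A1 lay between -1.13 (day 7) and 0.76 (day 13). In the table the intervals of this pair overlap by 1.34 kb, and the use of strand in counting is not given in the sources used here, so reads from the overlap could not be assigned with certainty.

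COL4A5 and COL4A6, the chains of a second pair that is found in the basement membranes of fewer tissues, had a similar course. COL4A5 (ENSG00000188153) had 184, 207, 285 and 652 on days 0 to 3, 2802 and 3438 on days 5 and 7, 2972, 2643 and 2170 on days 9, 11 and 13, and 1494 at day 21. COL4A6 (ENSG00000197565) had 66, 53, 146 and 452 on days 0 to 3, 1733 and 1087 on days 5 and 7, 1087, 980 and 744 on days 9, 11 and 13, and 454 at day 21. From day 11 on, each of their values was below the one before, but both stayed above their values of days 0 to 2. From day 3 to day 7 the log2 changes were 2.70 for COL4A1, 2.08 for COL4A2, 2.40 for COL4A5 and 1.26 for COL4A6, the last of which was not called, although COL4A6 had been called from day 0 to day 3 (2.76). From day 7 on, no type IV chain was called in either direction, and 3 of 4 had a negative change from day 7 to day 13 and from day 13 to day 21. Of all genes tested, 4659 of 8892 and 4627 of 8786 had a negative change in these steps. With so few chains, 3 of 4 is not set apart from that. A list of endothelial genes, a cell type that makes much type IV collagen, had 6 of 7 measured, with a summed value between 319 and 653 on days 0 to 7 and between 872 and 2012 on days 9 to 21. At day 5, when the type IV chains were at 1733 or more, CDH5, TIE1 and ESAM were at 8, 3 and 1, KDR was at 42, and TEK and VWF were at 203 and 299. VWF had been called higher from day 0 to day 3 (6.28) and was called lower from day 3 to day 7 (-3.28). The part of such cells in the type IV values was not tested.

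Type VI collagen, which forms beaded filaments near basement membranes, had its chains out of step. COL6A1 (ENSG00000142156, chromosome 21) had 612, 780, 1887 and 2798 on days 0 to 3, 918 and 822 on days 5 and 7, 956, 1185 and 1887 on days 9, 11 and 13, and 2798 at day 21. COL6A2 (ENSG00000142173, chromosome 21) had 383, 668, 1488 and 2968 on days 0 to 3, 1214 and 478 on days 5 and 7, 980, 1638 and 2796 on days 9, 11 and 13, and 6493 at day 21. Both were high at day 3, low at day 7 and high again at day 21. COL6A2 was called higher from day 0 to day 3 (2.95), lower from day 3 to day 7 (-2.63) and higher from day 7 to day 13 (2.55). COL6A1 was called higher in the first of these steps (2.19) and had a change of -1.77, not called, from day 3 to day 7.

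COL6A3 (ENSG00000163359, chromosome 2), the chain that completes the usual type VI trimer, had 65, 50, 16 and 7 on days 0 to 3, 9 and 78 on days 5 and 7, 1248, 1385 and 1249 on days 9, 11 and 13, and 2638 at day 21. It was lowest at day 3, when COL6A1 and COL6A2 were at a peak. Its log2 change was -3.04 from day 0 to day 3, opposite to those of its partners, and 3.30 and 3.98 in the next steps. The interval of this row in the table spans 6.18 kb, 6.8% of the gene in GENCODE release 29. The intervals of COL4A5 (1.3%), COL7A1 (2.9%), COL15A1 (0.8%) and PLOD2 (17.5%) were also short, and whether these rows count the whole gene is not given in the sources used here.

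Several FACIT chains were highest at the end. COL12A1 (ENSG00000111799, chromosome 6) had 31, 24, 29 and 26 on days 0 to 3, 32 and 128 on days 5 and 7, 401, 528 and 310 on days 9, 11 and 13, and 2028 at day 21. COL14A1 (ENSG00000187955, chromosome 8) had 104, 32, 6 and 9 on days 0 to 3, was listed at 0 at day 5, had 3, 18, 16 and 41 on days 7 to 13, and 1158 at day 21. COL16A1 (ENSG00000084636, chromosome 1) had 26, 16, 18 and 18 on days 0 to 3, 10 and 2 on days 5 and 7, 8, 22 and 37 on days 9, 11 and 13, and 650 at day 21. All of these were called higher from day 13 to day 21, by 2.71, 4.79 and 4.10, and COL14A1 had been called lower from day 0 to day 3 (-3.39). Before day 21, COL14A1 had at most 104 and COL16A1 at most 37, so their late rise rests on that single library.

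Among the other chains, COL15A1, a multiplexin of basement membrane zones, was between 0 and 34 until day 13 and at 162 at day 21 (3.65 from day 13). COL7A1, the chain of the anchoring fibrils of epithelia, was between 22 and 78 until day 13 and at 152 at day 21, and passed the call narrowly (2.01). COL21A1 was at 46 at day 13 and 170 at day 21 (1.86, not called). COL18A1 (ENSG00000182871, chromosome 21), a multiplexin whose cleaved end is endostatin and which is abundant in liver, had 1249, 1045, 852 and 804 on days 0 to 3, 3861 and 2796 on days 5 and 7, 2021 on days 9, 11 and 13, and 1248 at day 21. Its peak at day 5 fell on the same day as that of COL4A1 and COL4A2, with 4.80 times the day 3 value, and it was called in none of the comparisons. COL19A1 was highest at day 7 (96) and the transmembrane chain COL13A1 at day 2 (104), and both were below 50 at day 21. COL23A1 was highest at day 3 (152). COL9A1, COL22A1, COL24A1 and COL25A1 stayed below 50 in every library and could not be called.

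Step by step, 8 of 20 chains tested were called higher and 2 lower from day 0 to day 3, where 3.94% of all genes were higher and 2.16% lower. Those higher were COL2A1, COL5A1, COL5A2, COL4A6, COL6A1, COL6A2, COL9A2 and COL13A1, and COL6A3 and COL14A1 were lower. COL9A2 and COL13A1 were below 50 at day 0, and COL6A3 and COL14A1 were below 50 at day 3. Each of these could be called only in the direction found. With day 2 in place of day 3 the chains called higher were 4 and lower 1. From day 3 to day 7, 9 of 25 were higher and 3 lower (5.63% and 4.41% of all genes), with COL1A1, COL3A1, COL11A2, COL4A1, COL4A2, COL4A5, COL6A3, COL12A1 and COL19A1 higher and COL5A2, COL6A2 and COL13A1 lower. COL3A1, COL11A2, COL6A3, COL12A1 and COL19A1 were below 50 at day 3 and could only be called higher. COL13A1 was below 50 at day 7 and could only be called lower. With day 5 in place of day 7 only 1 chain was called lower.

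From day 7 to day 13, 5 of 24 chains were higher and 4 lower (3.08% and 2.46% of all genes). COL1A2, COL5A1, COL5A2, COL6A2 and COL6A3 were higher, and COL9A2, COL9A3, COL11A2 and COL19A1 were lower. All 5 of the former reach the top levels of the scale, and with the genes that reach a value of 2000 left out, 0 chains were called higher in this step. The chains called lower were all below 50 at day 13 and could only be called lower. From day 13 to day 21, 5 of 22 chains were higher and 0 lower (2.28% and 1.62% of all genes), and these were COL7A1, COL12A1, COL14A1, COL15A1 and COL16A1, none of them fibrillar or type IV. In that step COL1A2, COL3A1 and COL5A2 had the same level in both libraries. From their day 13 levels COL1A2, COL3A1 and COL5A1 could not be called higher, as the last step of the scale is 1.53. COL7A1, COL14A1, COL15A1 and COL16A1 were below 50 at day 13. They were tested only through their day 21 values and could only be called higher. The contrast between types in this step is thus partly fixed by the scale and the filter.

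**Figure D4:**
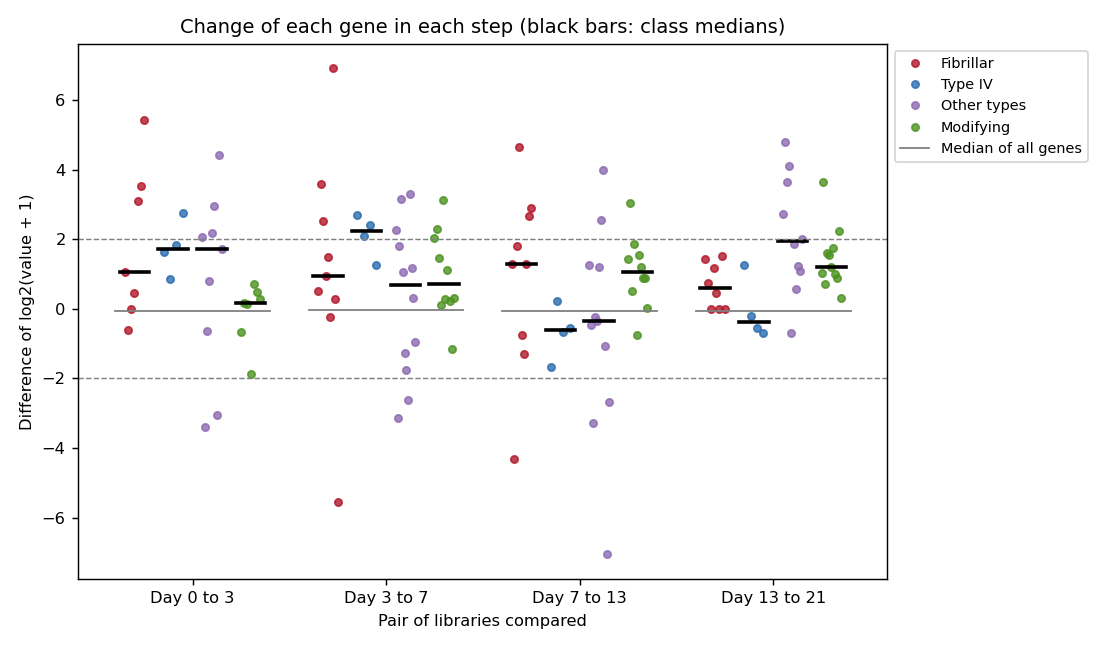
Difference of log2(value + 1) between the libraries at the ends of each step, for each gene with a larger value of at least 50, by type. Black bars are class medians, the grey line is the median of all genes and dashed lines mark differences of 2 and -2. The median of type IV chains is 2.24 from day 3 to day 7 and -0.37 from day 13 to day 21, when that of other types is 1.94.

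The class medians moved at different steps. For type IV chains the median change was 1.72 from day 0 to day 3, 2.24 from day 3 to day 7, -0.60 from day 7 to day 13 and -0.37 from day 13 to day 21. For the fibrillar chains tested it was 1.07, 0.93, 1.30 and 0.60, and for the other chains tested 1.73, 0.68, -0.36 and 1.94. With every measured chain kept, low ones included, the medians were 0.76, 0.72, 1.54 and 0.60 for the 10 fibrillar chains and -0.22, -0.58, 0.77 and 1.15 for the 18 other chains, so that for the latter the sign turned in each of the 3 steps up to day 13. The median of all genes was between -0.06 and -0.04 in each step. The spread within a class was wide, from -5.55 to 6.91 among fibrillar chains between days 3 and 7, and no test of a difference between classes was made, since the members of a class are not replicates.

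Among the genes that modify collagen, none was called in the first step. From day 0 to day 3, 0 of 7 modifying genes tested were called in either direction (3.94% of all genes were called higher and 2.16% lower), and their median change was 0.18. With so few genes, 0 calls is near those shares and does not show that the class rose later than the chains. LOX, LOXL1, LOXL3 and BMP1 were below 50 on both days and were not tested. P4HA1 (ENSG00000122884, chromosome 10), a catalytic subunit of the prolyl 4-hydroxylase that makes the helix stable, had 218, 148, 167 and 247 on days 0 to 3, 231 at day 5, 2166 at day 7, 1436, 919 and 1279 on days 9, 11 and 13, and 2970 at day 21. Nearly all of its early rise, 9.38-fold, lay between days 5 and 7. P4HA2 (ENSG00000072682, chromosome 5), the other subunit of this kind measured, had 78, 32, 48 and 86 on days 0 to 3, 205 and 104 on days 5 and 7, 176, 236 and 306 on days 9, 11 and 13, and 1022 at day 21, and was called only over the whole course (3.69).

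The lysyl hydroxylases make the hydroxylysines used for crosslinks and for attached sugars. PLOD1 (ENSG00000083444, chromosome 1) had 198, 160, 242 and 323 on days 0 to 3, 456 and 376 on days 5 and 7, 500, 634 and 695 on days 9, 11 and 13, and 1279 at day 21. PLOD2 (ENSG00000152952, chromosome 3), which acts on the telopeptides, had 320, 186, 451 and 451 on days 0 to 3, 336 and 200 on days 5 and 7, 245, 306 and 368 on days 9, 11 and 13, and 1739 at day 21. PLOD2 was called higher from day 13 to day 21 (2.24), and PLOD1 only from day 0 to day 21 (2.69). PLOD3 was between 117 and 234 in all libraries and was called in no comparison.

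LOX (ENSG00000113083, chromosome 5), the lysyl oxidase that starts crosslinks between lysines of collagen and elastin, had 6, 6, 8 and 12 on days 0 to 3, 14 and 62 on days 5 and 7, 200, 374 and 518 on days 9, 11 and 13, and 6496 at day 21. It was called higher in each step after day 3, with log2 changes of 2.28, 3.04 and 3.65, and no value was lower than that of the day before. The first of these calls rests on 12 and 62. It was lost with a pseudocount of 5 and with a larger value of at least 200. LOXL2 (ENSG00000134013, chromosome 8), which is known to act on type IV collagen, had 249, 132, 146 and 157 on days 0 to 3, 331 and 169 on days 5 and 7, 407, 530 and 620 on days 9, 11 and 13, and 1888 at day 21. Its rise from day 0 to day 21 was 2.92. LOXL1 was at 20 at day 0 and 198 at day 21 (3.24), and LOXL3 was between 13 and 87 and was not called.

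BMP1 (ENSG00000168487, chromosome 8), which cuts off the C-propeptide of fibrillar procollagens and also activates LOX, had 8, 20, 32 and 21 on days 0 to 3, 63 and 88 on days 5 and 7, 156, 196 and 240 on days 9, 11 and 13, and 496 at day 21. From day 5 on each value was above the one before, with a log2 change of 5.79 over the whole course. PCOLCE, which enhances this cut, was at 144 at day 0, lowest at day 5 (26) and at 404 at day 21 (1.48 from day 0, not called).

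From day 3 to day 7, 3 of 10 modifying genes tested were called higher (P4HA1, LOX and BMP1) and 0 lower (5.63% and 4.41% of all genes), and with day 5 in place of day 7 none was. LOX and BMP1 were below 50 at day 3 and could only be called higher. From day 7 to day 13 LOX alone of 10 was higher (3.08% of all genes), and from day 13 to day 21 LOX and PLOD2 of 11 were (2.28% of all genes), or 4 with day 11 in place of day 13. All 11 had a positive change in that last step, between 0.31 and 3.65, with a median of 1.21, where 4049 of 8786 genes tested had a positive change.

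**Figure D5:**
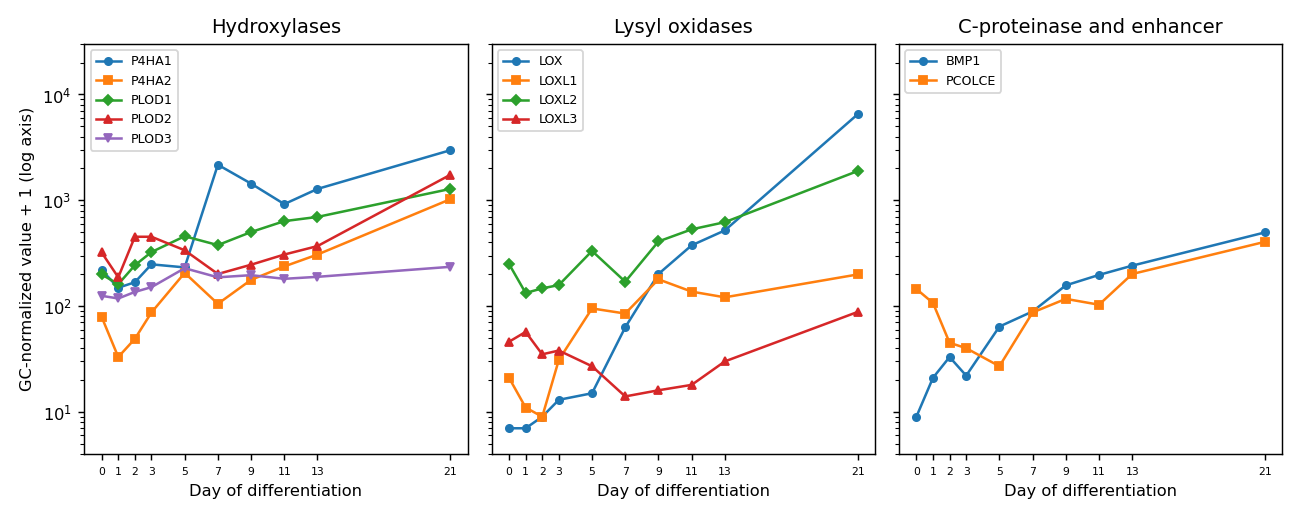
Value + 1 on a log axis against the day of differentiation for the 11 modifying genes, in panels for hydroxylases, lysyl oxidases, and BMP1 with PCOLCE. Every gene has its highest value at day 21, LOX goes from 6 at day 0 to 6496 at day 21, and P4HA1 steps up from 231 at day 5 to 2166 at day 7.

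Of 18 genes listed for the folding, glycosylation and export of collagen, 16 were measured, and from day 0 to day 21, 2 of the 15 tested were called higher (CREB3L1 and SPARC) and 0 lower, or 13.3% higher, near the 11.9% of all genes. Their median change was 1.03. SERPINH1, the collagen chaperone HSP47, had 2636 at day 0, 3428 at days 7 and 9 and 1733 at day 21. P4HB, the partner of the P4HA subunits and also a general disulphide isomerase, had 1554 at day 0, 4855 at days 7 and 9 and 2426 at day 21. SPARC, a secreted protein that binds collagen, had 660 at day 0 and 18734, the top value, in every library from day 7. CREB3L1, a transcription factor known to act on COL1A1, was at 26 at day 0 and 263 at day 21 (3.29).

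LEPREL1, an older name of the prolyl 3-hydroxylase P3H2, had 102 and 86 at days 0 and 1, 1888 and 2431 at days 2 and 3, 768 at day 5 and between 217 and 309 after. It was called higher from day 0 to day 3 (4.56) and lower from day 3 to day 7 (-3.04), the same directions as COL5A2, and was singled out after its values were seen.

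Among the N-proteinases, ADAMTS2, which removes the N-propeptide of type I and III procollagens, was at 13 at day 0 and 402 at day 21 (4.85), and ADAMTS3 was lower, with 50 and 9. Of the collagen receptors, 6 of 8 were measured, and from day 0 to day 21, 3 of 5 tested were called higher and 0 lower (11.9% and 11.5% of all genes). The integrin subunit ITGA1 had 62 at day 0 and 652 at day 21, the fibrillar collagen receptor DDR2 had 18 and 252, and ITGA11, listed at 0 before any factor was added, had 333 at day 21. DDR1, a receptor found mainly in epithelia that also binds type IV collagen, had 527 and 381, and the shared subunit ITGB1 had 1887 and 1638, neither called. Of 6 macrophage genes listed, 2 were measured, with a summed value of 50 at day 13 and 324 at day 21. CD68 made most of this, with 50 and 259, while PTPRC had 0 and 65, and 39 in the undifferentiated cells of day 0. In the same step COL7A1, COL12A1, COL14A1, COL15A1, COL16A1, PLOD2 and LOX were called higher. The part of macrophages in the late values was not tested.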

How the data were processed

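The 10 libraries were matched to their day by column name and sample title. Per the methods of the study, the authors used Bowtie2 (2.2.0) and RSEM (1.2.17) on transcripts of Ensembl 76, normalized for GC content with EDASeq, and deposited whole-number scores for 12125 genes. These scores share 1 distribution in all libraries, so a value is relative to the other genes of its library. The study states an average depth of sequencing, but the depth of each library is unknown. The submitters' processing notes name hg19 and mm10 as builds. Table intervals are those of the file, set against gene lengths of GENCODE 29 only by length, and promoter sequences are from RefSeq (GRCh38.p14), where the promoters of BMP1, COL14A1, COL1A1, COL1A2, COL22A1, COL2A1, COL3A1, COL5A2, COL6A1, COL9A3 and LOXL2 were not used here.

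Differences of log2(value + 1) were computed for days 0 to 3, 3 to 7, 7 to 13, 13 to 21 and 0 to 21, with Python 3.11.15, numpy 2.4.6 and pandas 2.3.3, and plots with matplotlib 3.10.9. Genes with a larger value of at least 50 were called at a log2 difference of at least 2. The code was tested on simulated data. Motifs were searched on both strands in the 250 bases before a start. Chains called in at least 1 comparison with a highest value of at least 200, and modifying genes alike, are given with all 10 values (27 genes), besides COL18A1. The members and lists were chosen with earlier results of these data known. Alternatives were pseudocounts of 0.1 and 5, other filters and thresholds, median of ratios scaling, neighbouring libraries, and leaving out genes that reach 2000.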

Additional observations from a re-analysis of the deposited data

How the results depend on the processing

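Of 188 values under the alternatives, 147 differed little from the main value (counts within 1.5 times, medians within the spread of days 9 and 11), 41 moved and 0 reversed. Apart from the lower threshold, shares of all genes are not given for the alternatives. Those counts show only how far the main counts move. A pseudocount of 0.1 and median of ratios scaling moved none. That scaling added up to 0.19 to log2 changes from day 0 to day 21, and less for low values. As the scores share 1 distribution, its factors lay between 0.9153 and 1.0572, so it could move little. A pseudocount of 5 moved 1, the modifying genes higher from day 3 to day 7, from 3 to 1, with LOX and BMP1 lost.

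With genes that reach 2000 left out, fewer genes were tested. The chains tested were 8 from day 0 to day 3, 11 from day 3 to day 7, 10 from day 7 to day 13 and 10 from day 0 to day 21. Chains higher became 4 from day 0 to day 3, 2 from day 3 to day 7, 0 from day 7 to day 13 and 6 from day 0 to day 21, chains lower 1 from day 0 to day 3 and 1 from day 3 to day 7, and modifying genes higher 1 from day 3 to day 7, 0 from day 7 to day 13 and 1 from day 13 to day 21. The medians from day 0 to day 21 became 2.19 for fibrillar and 1.94 for other chains.

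With a larger value of at least 200, chains higher became 5 from day 3 to day 7 and 3 from day 13 to day 21, chains lower 0 from day 0 to day 3 and 2 from day 7 to day 13, modifying genes higher 1 from day 3 to day 7, and the median of other chains 4.08. With no filter, chains higher became 8 from day 7 to day 13, chains lower 5 from day 3 to day 7, and the medians 3.53 for fibrillar and 1.43 for other chains.

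With a log2 difference of at least 1, chains higher became 14 from day 3 to day 7, 10 from day 7 to day 13 and 12 from day 13 to day 21, chains lower 5 from day 3 to day 7, 7 from day 7 to day 13 and 2 from day 0 to day 21, modifying genes higher 5, 5 and 8 in the steps after day 3, and lower 1 from day 0 to day 3 and 1 from day 3 to day 7. The chains tested were 25, 24 and 22 in the steps after day 3 and 24 from day 0 to day 21. The modifying genes tested were 10, 10 and 11 in the steps after day 3. Of all genes tested, 20.2%, 26%, 17.9% and 17.7% changed by at least 1, in either direction, in the steps in order. From day 0 to day 21, 50.4% did.

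With the neighbouring library at 1 end, chains higher became 4 from day 0 to day 3, chains lower 1 from day 0 to day 3, 1 from day 3 to day 7 and 1 from day 0 to day 21, modifying genes higher 0 from day 3 to day 7 and 4 from day 13 to day 21, and the medians 3.83 for modifying genes and 3.31 for type IV chains. Beyond construction, the cause of these moves was not tested.

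No paired analysis was possible because each day has 1 library. The depth of each library is unknown, and values at the top levels limit what can be seen of chains such as COL1A2, COL3A1, COL4A1, COL5A1 and COL5A2.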

Other observations

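Collagen genes that lie next to each other in the genome did not all share a course. COL3A1 and COL5A2 point towards each other on chromosome 2, and their intervals in the table end 19149 bases apart. The log2 difference of COL5A2 from COL3A1 was 10.11 at day 2, when COL5A2 was at the maximum of the scale and COL3A1 at 16, and -2.72 at day 7, a range of 12.83 over the course. COL19A1 and COL9A1 lie end to end on chromosome 6, 5084 bases apart, and their difference ranged over 8.72, with values of at most 96 and 42. In the pairs that face away from each other, the range was 1.89 for COL4A1 and COL4A2 and 1.42 for COL4A6 and COL4A5. For COL6A1 and COL6A2, which lie in the same direction on chromosome 21 with 93046 bases between them, it was 2.00. These pairs were chosen after the values were seen, values at the top levels of the scale limit the ranges, and no test was made.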
